A study of Mus musculus with 4 samples.

Results

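The serpins are a large family of proteins named for their serine protease inhibitors, and they were examined here for trimethylation of histone H3 at lysine 27 (H3K27me3) in mouse embryonic fibroblasts. The members were all genes outside the X chromosome whose symbol is Serpin followed by a clade letter from a to i and a digit. This gave 62 of the 22691 genes listed, and 58 of them had a value in both genotypes. The mark was measured by chromatin immunoprecipitation and sequencing (ChIP-seq) with the monoclonal antibody CMA323. Cells were fibroblasts of female C57BL6/J fetuses at stage E13.5, either Smchd1 +/+ (WT) or Smchd1 MD1/MD1 (MD1), a genotype that the series describes as deficient for the chromatin protein SmcHD1. Both genotypes share strain, sex and stage, and the number of fetuses behind each culture is not given in the sources used here. Each genotype had 1 ChIP library and 1 input library made without antibody, so there was no replicate error, and every comparison below is a description of these libraries without a test.

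Most serpins trap a protease by offering it an exposed loop as bait, and the cleaved serpin then locks the enzyme in a dead complex. Clade A holds proteins secreted mostly by the liver, clade B holds intracellular inhibitors of leukocytes and epithelia, and the smaller clades hold inhibitors of clotting, fibrinolysis and complement. A few members inhibit nothing, among them Serpinh1, a chaperone of collagen. H3K27me3 is laid down by Polycomb repressive complex 2 and marks silent genes, with CpG-rich promoters of developmental genes as its best known sites. SmcHD1 is known for its part in silencing the inactive X chromosome and some autosomal gene clusters.

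Values are the authors' log2 enrichments per gene, 1 for each genotype, and a difference is MD1 minus WT on that log2 scale. A gene is called lower or higher where the genotypes differed at least 2-fold, a log2 difference of at least 1 in size. Low autosomal genes were lower still in MD1 (slope of MD1 on WT 1.25 over 19836 autosomal genes), and the autosomal median difference was -0.27. Each difference is therefore also given relative to the median of 500 autosomal genes of similar mean level taken from its own length quartile, and called level-matched. The standard deviation (SD) of those 500 genes serves as the yardstick of scatter. The values have the form of ratios of whole numbers, as a ChIP count over an input count would give, in which gene length cancels. Levels are therefore compared between genes of different length, although which part of each gene was counted is unknown here.

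The members form 3 genomic clusters and 11 genes outside them, with positions given for mm9. The Serpina cluster on chromosome 12 (104854885 to 105652539) held all 24 members of clade A. Clade B was split between a cluster of 12 genes on chromosome 1 (108757757 to 109505555) and one of 15 genes on chromosome 13 (32933961 to 34094663). The other 11 genes belong to clades C to I. Serpina7, encoding a thyroid hormone carrier, lies on the X and was left out by the rule. It stood at 0.69 in WT and 1.61 in MD1.

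Promoter sequences from the RefSeq table for GRCm38.p6, matched by symbol, were found for 51 of the 62 members. The 250 bases before the start of 6 members are shown because they cover the range of CpG content and of level in the family. They are read 5′ to 3′ along the gene, with every CpG dinucleotide (the letters CG, which read the same on both strands) in capitals. Serpine2 is at chr1:79858666-79858915 (minus strand), Serpinh1 at chr7:99353240-99353489 (minus strand), Serpinf1 at chr11:75422624-75422873 (minus strand), Serpina11 at chr12:103989944-103990193 (minus strand), Serpinb6d at chr13:33661155-33661404 (plus strand) and Serpinb8 at chr1:107589756-107590005 (plus strand), all in GRCm38.p6.
Serpine2: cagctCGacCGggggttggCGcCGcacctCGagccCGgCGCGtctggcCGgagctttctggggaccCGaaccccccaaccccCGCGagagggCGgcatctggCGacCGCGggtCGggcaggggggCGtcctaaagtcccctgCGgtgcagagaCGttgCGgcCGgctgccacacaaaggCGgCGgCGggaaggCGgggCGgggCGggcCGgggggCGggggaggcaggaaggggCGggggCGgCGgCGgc
Serpinh1: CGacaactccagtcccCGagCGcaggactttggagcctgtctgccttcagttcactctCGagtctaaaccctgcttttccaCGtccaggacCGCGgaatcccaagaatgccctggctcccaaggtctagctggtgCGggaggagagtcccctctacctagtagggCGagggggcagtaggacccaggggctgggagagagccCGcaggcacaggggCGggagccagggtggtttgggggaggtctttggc
Serpinf1: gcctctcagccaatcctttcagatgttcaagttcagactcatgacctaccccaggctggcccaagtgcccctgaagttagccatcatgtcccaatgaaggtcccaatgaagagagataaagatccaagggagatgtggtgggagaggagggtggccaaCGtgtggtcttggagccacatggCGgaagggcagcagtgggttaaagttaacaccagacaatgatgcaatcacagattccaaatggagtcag
Serpina11: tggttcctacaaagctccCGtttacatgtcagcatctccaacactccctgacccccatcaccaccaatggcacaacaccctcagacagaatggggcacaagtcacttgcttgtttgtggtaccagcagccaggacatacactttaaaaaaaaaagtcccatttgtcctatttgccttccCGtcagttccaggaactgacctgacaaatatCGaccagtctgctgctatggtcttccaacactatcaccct
Serpinb6d: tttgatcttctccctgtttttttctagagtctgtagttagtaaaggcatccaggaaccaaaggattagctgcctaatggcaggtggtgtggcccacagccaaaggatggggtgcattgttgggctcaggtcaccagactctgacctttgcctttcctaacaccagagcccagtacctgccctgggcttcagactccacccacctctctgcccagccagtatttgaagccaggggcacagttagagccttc
Serpinb8: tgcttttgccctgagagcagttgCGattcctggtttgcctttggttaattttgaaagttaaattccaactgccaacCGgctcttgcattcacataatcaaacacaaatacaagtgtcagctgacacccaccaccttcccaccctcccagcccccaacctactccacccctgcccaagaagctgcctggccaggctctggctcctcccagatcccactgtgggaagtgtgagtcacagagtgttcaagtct

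The 6 windows held 34, 11, 2, 3, 0 and 2 CpGs in that order. Serpin promoters were poor in CpG: the median over the 51 members was 2 in 250 bases, against 6 over all 27025 promoters of the table and 13 over the 14749 of them whose genes were compared on autosomes. Of the members, 10 (19.6%) had no CpG, against 7.74% of all promoters, and 92.3% of all promoters held at least 1. The cluster on chromosome 1 had the fewest, with 6 of 11 promoters without a CpG. More than 10 CpGs were found in 4 members, Serpine2, Serpinb6a, Serpini1 and Serpinh1. Windows were not found for 11 members, among them Serping1, Serpina4-ps1 and Serpina3m.

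Serpin genes were intermediate in H3K27me3, above most autosomal genes and below the strongest targets. The median over the 58 compared members was -0.06 in WT and -0.19 in MD1, against autosomal medians of -0.78 and -0.90. In each genotype 49 of the 58 stood above the autosomal median of that genotype. Among the members described here, levels ran up to 1.49 in WT (Serpina4-ps1) and 1.78 in MD1 (Serpina3c), and down to -3.15 and -5.93 (Serpinh1). A bulk value cannot tell fewer cells with the mark from less mark in each cell. Among autosomal genes with up to 10 promoter CpGs the median was 0.06 in WT and -0.01 in MD1, and the 43 members of that class had medians of -0.08 and -0.22. Autosomal genes with 11 or more CpGs had a median of -1.79 in WT, and the 4 members of that class one of -1.10. The family thus lay near other genes with CpG-poor promoters in both genotypes.

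**Figure D1:**
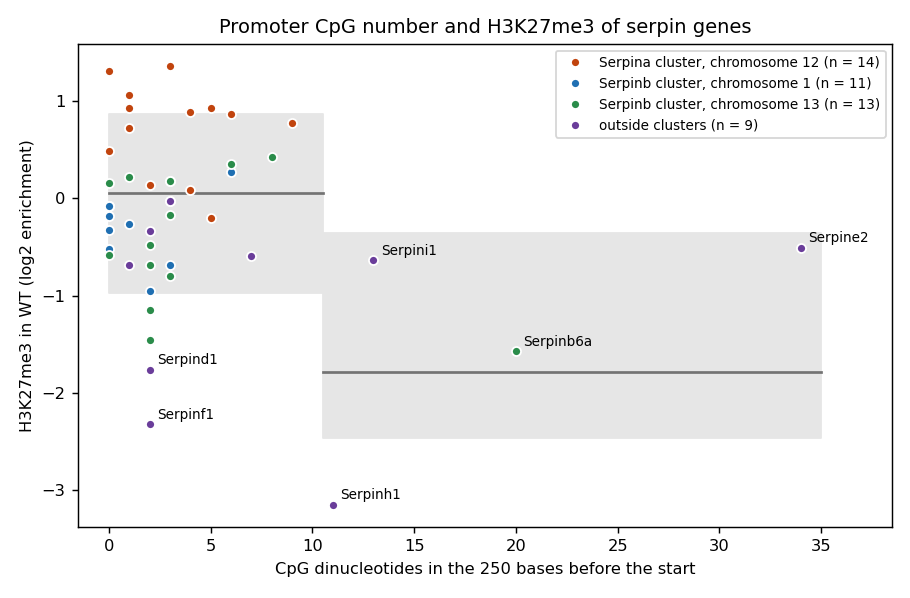
H3K27me3 in WT (log2 enrichment) of 47 serpin genes against the number of CpG dinucleotides in the 250 bases before the start, coloured by genomic cluster. Grey lines and shading are the median and quartiles of autosomal genes with up to 10 and with 11 or more CpGs, and 43 of the 47 members fall in the first class.

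Few serpins differed 2-fold between the genotypes. Of 58 members, 3 (5.17%) were at least 2-fold lower in MD1, against 20.4% of autosomal genes, and 2 (3.45%) were at least 2-fold higher, against 1.61%. The lower members were Serpinh1, Serpinb8 and Serpinb3a, and the higher ones Serpinf1 and Serpinb6d. The autosomal share of lower genes came mostly from genes of low level, and once genes under the 25th percentile of mean level were left out it was 4.71%, where 2 of 56 members were lower. The same 56 included both higher members, against 1.87% of autosomal genes. Relative to level-matched genes, 1 member was lower (1.72%, against 3.41% of autosomal genes) and 3 were higher (5.17%, against 3.16%), Serpinf1 and Serpinb6d among them. With so few genes called, these member shares lay near those of autosomal genes of like level.

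The median difference over the 58 members was -0.05, and the level-matched median was 0.04. Differences were under 0.5 in size at 47 members (81.0%), against 55.3% of autosomal genes. Level-matched differences lay within 1 SD of the matched genes at 44 members (75.9%), against 71.6% of autosomal genes. The median size of the level-matched difference was 0.27 in serpins and 0.25 in autosomal genes. Across the 58 members, which share the same libraries and in part the same neighbourhood, WT and MD1 values correlated with r = 0.90. Over autosomal genes r was 0.95.

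**Figure D2:**
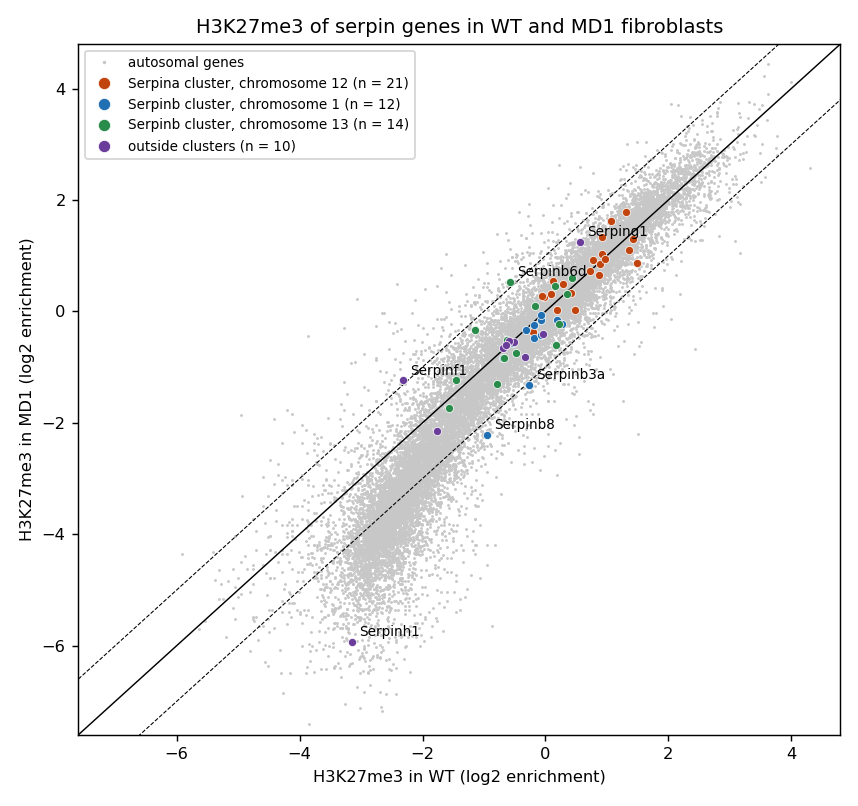
H3K27me3 in MD1 against WT (log2 enrichments), with the serpin genes described here coloured by cluster over 19836 autosomal genes in grey. The solid line marks equal values and the dashed lines a 2-fold difference, beyond which 3 members lie below (Serpinh1, Serpinb8, Serpinb3a) and 2 above (Serpinf1, Serpinb6d).

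The Serpina cluster on chromosome 12 carried the most mark. Of its 24 genes, 21 were compared, with a median of 0.77 in WT and 0.72 in MD1, and all 21 stood above the autosomal median in both genotypes. No gene of the cluster differed 2-fold, differences ran from -0.62 to 0.56, and the median difference was -0.003. At the median the surroundings had less, with -0.03 in WT and -0.38 in MD1 over the 13 other genes within 500 kb. These neighbours were mixed, from -2.46 at Ddx24 to 2.18 at Gsc in WT. Fam181a, Asb2, Prima1 and Clmn also stood above the cluster's WT median. Clades A and B thus differed in level, with clade B at a median of -0.23 in WT and -0.38 in MD1 over 26 genes.

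Along the cluster the mark was unevenly spread. The 5 compared genes from Serpina10 to Serpina1e ran from -0.20 to 0.42 in WT, and the 16 from Serpina11 to Serpina3n ran from -0.05 to 1.49 with a median of 0.90. This border was picked after the values were seen. In MD1 the ranges were -0.38 to 0.55 and 0.02 to 1.78. The highest WT values were those of Serpina4-ps1, a pseudogene, at 1.49 in WT and 0.87 in MD1, Serpina3m, at 1.42 and 1.30, and Serpina11, at 1.36 and 1.10. The more marked end lay 56.9 kb from Gsc, a homeobox gene of the early embryo, which stood at 2.18 in WT and 2.19 in MD1. At the other end Ppp4r4, 2.84 kb away and encoding a phosphatase subunit, stood at -0.03 and -0.70. Serpina3n, the member nearest Gsc, stood at 0.72 in both genotypes, under the median of its stretch in WT. Over the 21 compared genes the rank correlation of level with distance from Gsc was -0.41 in WT and -0.36 in MD1. A part of Gsc in the levels was not tested.

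The less marked stretch holds several liver and hormone-binding members. Serpina10, an inhibitor of clotting factor X that acts with protein Z, stood at 0.29 in WT and 0.49 in MD1. Serpina6, the corticosteroid carrier of plasma, stood at 0.42 and 0.32. The Serpina1 family is that of antitrypsin, an inhibitor of neutrophil elastase. Its values were -0.20 and -0.38 for Serpina1b, 0.13 and 0.55 for Serpina1e and -0.03 and 0.27 for Serpina1f. Between the families lay Serpina11, Serpina9, a gene of germinal centre B cells (-0.05 and 0.27), and Serpina12, the adipokine vaspin (0.87 and 0.66). Serpina5, the protein C inhibitor, stood at 0.92 and 1.02. Adjacent genes could differ much in level, as Serpina11 and Serpina9 show.

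The Serpina3 family, expanded in mice from an ancestor of antichymotrypsin, was marked throughout. All 11 genes were above 0 in both genotypes, with a median of 0.88 in WT and 0.92 in MD1. Serpina3k, a liver plasma serpin that binds kallikrein, stood at 0.98 and 0.95, so not all liver members lay in the less marked stretch. The lowest were Serpina3g, at 0.08 and 0.31, Serpina3h, at 0.19 and 0.03, and Serpina3i, at 0.49 and 0.02, which lie side by side. Serpina3g is known from T cells, and its interval contains that of Serpina3f, so these genes can share reads. Serpina3f itself stood at 1.06 and 1.62 and Serpina3c at 1.31 and 1.78, the highest member in MD1. Their differences of 0.56 and 0.47 were the largest upward ones of the cluster, followed by 0.42 at Serpina1e. In lowest terms the MD1 ratios were 7 to 2 at Serpina3c and 3 to 2 at Serpina1e, so these values may rest on few reads. All 11 level-matched differences of the family lay within 1 SD of the matched genes.

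Downward differences in the cluster were led by Serpina4-ps1 (-0.62), Serpina3i (-0.47) and Serpina11 (-0.26). Relative to level-matched genes Serpina4-ps1 differed by -0.71 with an SD of 0.33, the 1 gene of the cluster beyond 2 SD. Serpina3i differed by -0.42 with an SD of 0.68, since genes of its length scatter more.

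**Figure D3:**
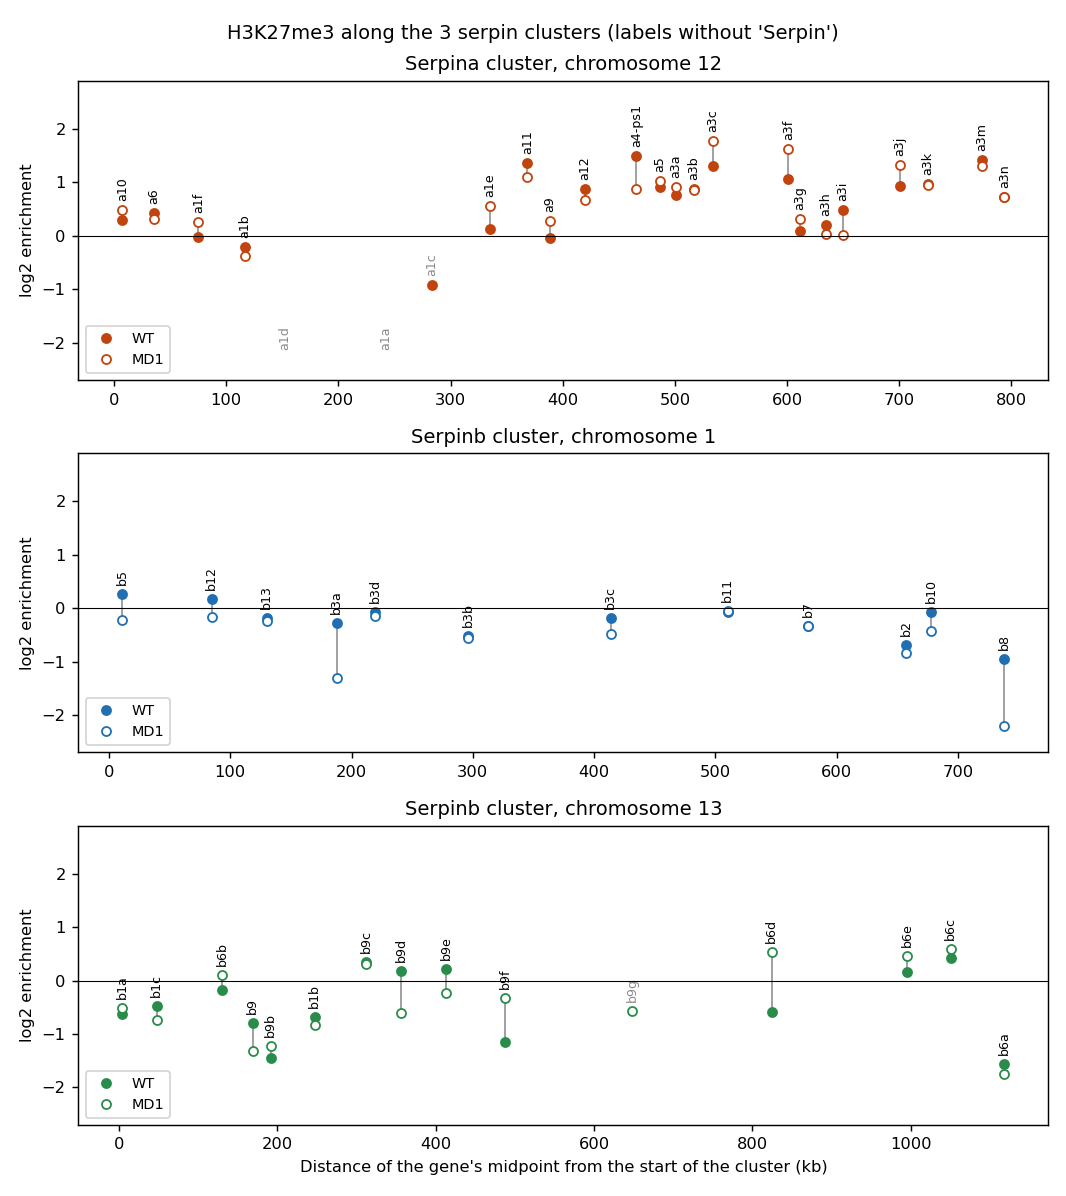
H3K27me3 (log2 enrichment) of each serpin gene in WT (filled) and MD1 (open) against the distance of its midpoint from the start of its cluster (kb). Genes without a value in 1 or both genotypes are labelled in grey, and the chromosome 12 cluster lies mostly above 0 while both Serpinb clusters lie mostly below.

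The 4 members without a pair of values each have a close relative in their cluster by promoter sequence, the only part compared. Serpina1a and Serpina1d had no value in either genotype, Serpina1c had one in WT alone (-0.91) and Serpinb9g one in MD1 alone (-0.58). The 6 pairs among Serpina1a, Serpina1b, Serpina1c and Serpina1d had promoters identical at 84.3% to 91.4% of aligned positions. Serpina1e and Serpina1f, at most 64.2% and 51.6% identical to any of the family, had both values. Serpinb9g was 92.9% identical to Serpinb9e. Over the 32 members of lettered subfamilies with a promoter to compare, 12 had a relative at 85% identity or more and 4 of those lacked a value, while none of the other 20 did. The limit of 85% was set after the values were seen, and how reads that map to several copies were counted is not given in the sources used here. The part of this similarity in the missing values was not tested. Whether the similarity affects the 8 close copies with both values, among them Serpina1b, Serpina3c and Serpina3n, was not tested either. The pair with the closest Serpina1 promoters is shown, each with the bases that differ from the other or are absent from it in capitals (chr12:103904951-103905200 for Serpina1c and chr12:103863620-103863869 for Serpina1a, GRCm38.p6, both minus strand).
Serpina1c: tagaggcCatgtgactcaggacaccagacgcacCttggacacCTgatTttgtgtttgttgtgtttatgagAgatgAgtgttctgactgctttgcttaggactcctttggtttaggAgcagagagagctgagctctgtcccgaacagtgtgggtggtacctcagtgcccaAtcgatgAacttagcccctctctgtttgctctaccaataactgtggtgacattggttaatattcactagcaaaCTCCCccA
Serpina1a: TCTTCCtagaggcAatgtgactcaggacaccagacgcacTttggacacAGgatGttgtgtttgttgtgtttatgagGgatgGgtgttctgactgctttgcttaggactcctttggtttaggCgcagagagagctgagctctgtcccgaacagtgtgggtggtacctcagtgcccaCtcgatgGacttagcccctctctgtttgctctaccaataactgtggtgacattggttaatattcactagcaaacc

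The Serpinb cluster on chromosome 1, which holds genes of stratified epithelia and some leukocytes, was less marked than the one on chromosome 12. The median over its 12 genes was -0.19 in WT and -0.38 in MD1. Of the differences, 11 of the 12 were negative, where 69.0% of autosomal differences were, and their median was -0.22 against an autosomal -0.27. Relative to level-matched genes 8 of the 12 were negative, against 50.4% of autosomal genes, with a median of -0.14, and centred on the autosomal median the cluster's median turned to 0.05. The 5 other genes within 500 kb had medians of -1.47 and -2.06, so at the median the serpins stood above their surroundings. These neighbours were mixed. D830032E09Rik, at -0.18 in WT and -0.80 in MD1, lay close to the cluster's median in WT. Bcl2, a survival gene, stood at -0.48 and -0.41, and Vps4b, an ATPase of membrane sorting, at -2.76 and -4.05.

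At Serpinb8 (109486583 to 109505555), which can inhibit furin, the WT value was -0.96 and the MD1 value -2.21. The difference was -1.25. Relative to level-matched genes it was -0.93 with an SD of 0.41. In lowest terms its ratios were 1 to 2 in WT and 19 to 86 in MD1. The WT value may rest on very few reads, or on more reads whose ratio reduces to these numbers. Serpinb8 was left out where denominators of at least 20 were required, which does not show that its depth was low. Serpinb8 is the last gene of the cluster and the lowest in WT. Serpinb3a (108942164 to 108948880), a relative of the squamous cell carcinoma antigens, had -0.27 in WT and -1.31 in MD1. Its difference was -1.05, or -0.97 when level-matched, little more than the SD of 0.84 among genes of its length and level. Its relatives Serpinb3b, Serpinb3c and Serpinb3d differed by -0.04, -0.30 and -0.07.

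Serpinb5, encoding maspin of breast and skin epithelium, had the highest WT value of the cluster, 0.27, and stood at -0.22 in MD1. Its difference of -0.49 was -0.43 when level-matched, with an SD of 0.30. The smallest differences were at Serpinb11 (0.02), Serpinb7 (-0.008) and Serpinb3b. Serpinb12 went from 0.18 to -0.16 and Serpinb13 from -0.19 to -0.24, both genes of epithelia. Serpinb2, an intracellular inhibitor of urokinase, went from -0.68 to -0.83, and Serpinb10, of blood-forming cells, from -0.08 to -0.43.

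The Serpinb cluster on chromosome 13 was the most mixed. The median over its 14 compared genes was -0.53 in WT and -0.42 in MD1, with 7 differences negative and 7 positive. The 11 other genes inside it or within 500 kb had medians of -1.46 and -1.62. The largest difference was at Serpinb6d (33753274 to 33763454), which stood at -0.58 in WT and 0.54 in MD1. This difference of 1.12 was 1.18 when level-matched, with an SD of 0.40. Serpinb6e, beside it, went from 0.16 to 0.46 and Serpinb6c from 0.43 to 0.60. In contrast Serpinb6a, a widely expressed inhibitor of cathepsin G, stood at -1.57 and -1.74, the lowest of the cluster in both genotypes. Its interval contains 2 other genes, 1110046J04Rik and Nqo2, which stood at -1.46 and -1.78 in WT, so reads can be shared.

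The Serpinb9 genes, copies of the inhibitor that shields lymphocytes from granzyme B, differed in both directions. Serpinb9f went from -1.15 to -0.33, a difference of 0.82 with a matched SD of 0.48. Serpinb9d went from 0.18 to -0.61 and Serpinb9e from 0.22 to -0.23. Serpinb9 itself went from -0.80 to -1.31 and Serpinb9b from -1.45 to -1.22, while Serpinb9c stood at 0.35 and 0.31. The neighbours Serpinb9e and Serpinb9f, whose promoters were 87.9% identical, thus had differences of opposite sign. Serpinb1a, an inhibitor of neutrophil elastase, stood at -0.62 and -0.52, and Serpinb1b and Serpinb1c differed by -0.15 and -0.27.

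**Figure D4:**
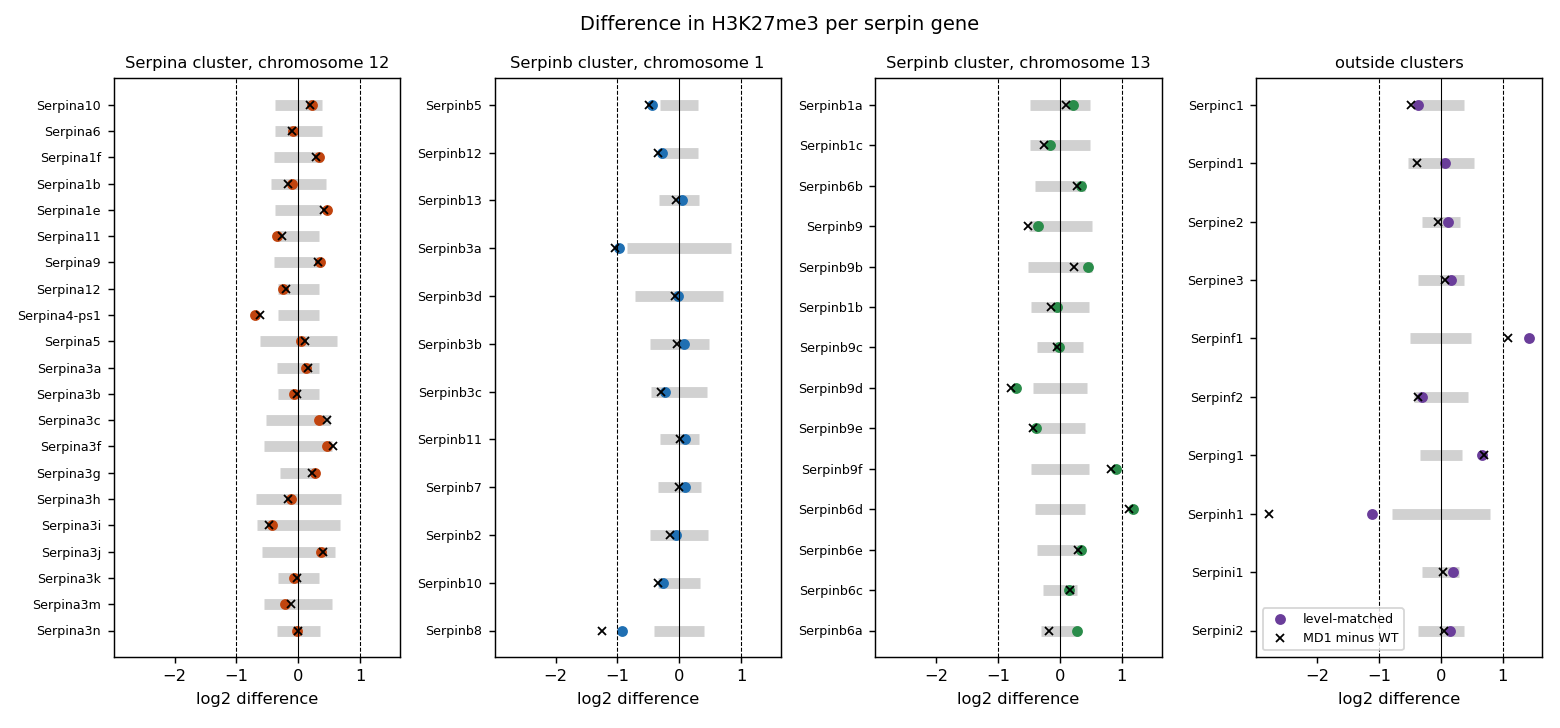
Log2 difference MD1 minus WT (crosses) and level-matched difference (circles) for the compared serpin genes described here, by cluster (in genomic order) or outside clusters. Grey bars span 1 SD of the 500 matched autosomal genes either side of 0 and dashed lines mark 2-fold, and no gene of the chromosome 12 cluster passes them.

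The serpins known as products of fibroblasts spanned a wide range of levels. Serpinh1 (7, 106493885 to 106501749), the collagen chaperone of the endoplasmic reticulum, stood at -3.15 in WT and -5.93 in MD1. Its difference of -2.78 was the largest of any member. Relative to level-matched genes it was -1.11 with an SD of 0.79, as other genes with so little mark were lower in MD1 too. In lowest terms its ratios were 13 to 119 in WT and 2 to 119 in MD1, so the MD1 value may rest on as few as 2 ChIP reads. The library depth is unknown, and no counting interval can be given.

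Serpine2, a cell-bound inhibitor of thrombin, has the CpG-richest promoter of the family, printed above. It stood at -0.51 in WT and -0.56 in MD1, above the autosomal median in both.

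Serpinf1 (11, 75223531 to 75236125), encoding a secreted factor that restrains blood vessel growth, was higher in MD1. Its values were -2.32 (WT) and -1.24 (MD1). The difference was 1.08, or 1.43 relative to level-matched genes with an SD of 0.49. Its ratios in lowest terms were 27 to 139 and 75 to 173. Its neighbour Serpinf2, encoding the plasmin inhibitor of blood, went the other way, from -0.03 to -0.41. Serping1 (2, 84605517 to 84615586), the inhibitor of the first complement proteases, was the most marked gene outside the clusters, at 0.56 in WT and 1.25 in MD1. Its difference of 0.69 was 0.66 when level-matched, with an SD of 0.33. Serpinh1 and Serpinf1, the called genes of this group, thus differed in opposite directions.

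The remaining genes outside clusters differed little. Serpinc1, encoding antithrombin, went from -0.34 to -0.82 and Serpind1, encoding heparin cofactor II, from -1.76 to -2.14. The interval of Serpind1 overlaps another gene. Serpini1, the neuronal inhibitor of tissue plasminogen activator, stood at -0.64 and -0.61, and Serpini2 at -0.69 and -0.65. Serpine3 stood at -0.59 and -0.53, and overlaps another gene too. Serpine2, Serpine3, Serpini1 and Serpini2 follow each other in the order of WT levels, from -0.51 to -0.69. In MD1 these genes ran from -0.53 to -0.65, and without replicates no error is known for their order in either genotype.

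**Figure D5:**
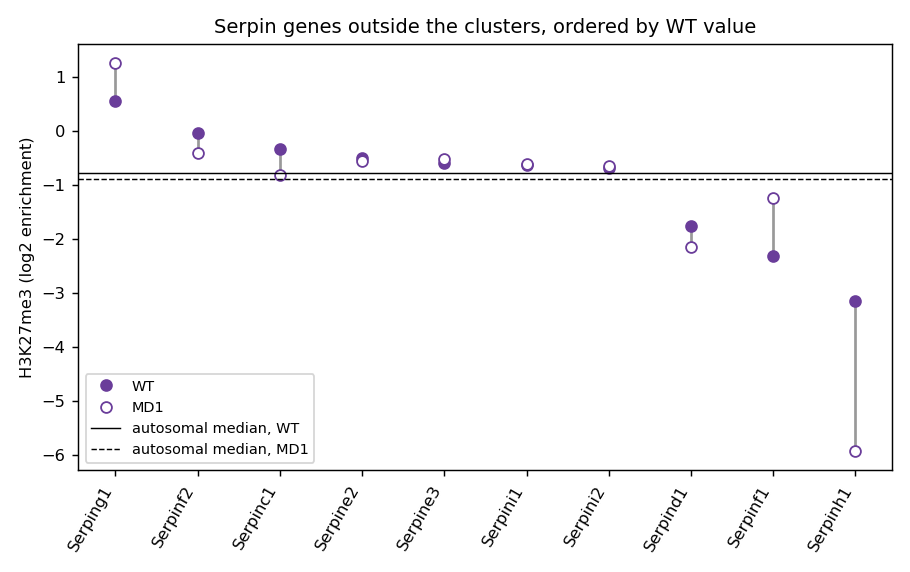
H3K27me3 (log2 enrichment) of serpin genes outside the clusters in WT (filled) and MD1 (open), ordered by the WT value, with horizontal lines at the autosomal medians. Serpinh1 shows the largest drop, from -3.15 to -5.93, and Serpinf1 and Serping1 lie higher in MD1.

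By the tissue that makes them, the remaining role groups held little that passed the 2-fold limit. Of 8 compared liver plasma serpins none was called, and their medians were 0.05 in WT and -0.03 in MD1. Of 8 epithelial serpins 1 was lower (Serpinb3a), and the medians were -0.19 and -0.28. All 8 differences were negative, where 69.0% of autosomal ones were, and 5 of the 8 stayed negative when level-matched. All 8 lie in the cluster on chromosome 1 and are not independent. Among 5 leukocyte serpins none was called, with medians of -0.62 and -0.52. Over autosomal genes 20.4% were lower and 1.61% higher, and in groups of 5 to 8 genes a count of 0 or 1 does not stand apart from these shares. At the median, the mark at marker genes of these tissues was higher. Medians were 1.07 and 0.998 at 8 hepatocyte genes, 0.75 and 0.98 at 6 keratinocyte genes and 1.25 and 1.59 at 6 leukocyte genes. All 8 hepatocyte genes stood above 0 in both genotypes. Of the keratinocyte genes 4 did so in WT and 5 in MD1, and of the leukocyte genes 4 in each. The leukocyte marker Cd68 stood far lower, at -2.42 and -3.99. Its difference of -1.57 was -0.34 when level-matched, with an SD of 1.13. The 15 fibroblast markers had medians of -2.84 and -3.96 and none was above the autosomal median in WT, while 1 was in MD1 (Lum, encoding a collagen-binding proteoglycan, -0.83 and -0.15). Of the 15, 6 were at least 2-fold lower and none was higher, but relative to level-matched genes none was lower and 2 were higher (Postn and Pdgfrb). RNA was not measured, so these values give the mark at such genes and not the makeup of the cultures.

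The proteases, receptors and cofactors that serpins act with had WT levels of -3.18 to 2.14 and MD1 levels of -4.28 to 2.23. All 30 genes of this list that were found in the table had both values, and their median was 0.38 in WT and 0.61 in MD1. Taken gene by gene the direction was the other one, as 18 differences were negative and 12 positive, with a median of -0.13. Of the 30 genes, 6 (20%) were at least 2-fold lower, against 20.4% of autosomal genes, and none was higher. None passed 2-fold in either direction relative to level-matched genes. The lower ones were Plaur, the urokinase receptor (-2.33 to -3.69), P4hb and P4ha1, subunits of the collagen prolyl hydroxylase (from -2.60 to -3.77 and -2.78 to -3.93), Ctsl, a lysosomal protease (-3.18 to -4.28), Masp2, a complement protease (-1.55 to -2.64), and F3, the tissue factor (-2.66 to -3.68). The plasminogen activators differed in direction, with Plau, encoding urokinase, at -2.10 and -3.03 and Plat, encoding tissue plasminogen activator, at -1.61 and -1.14. Lrp1, the receptor that clears serpin complexes, stood at -2.77 and -3.73. Of the 30 genes, 16 were above 0 in WT and 18 in MD1. Those above 0 in both include F2, encoding thrombin (0.90 and 0.67), Plg, encoding plasminogen (1.43 and 1.76), Elane, encoding neutrophil elastase (1.28 and 1.29), and Gzmb, encoding granzyme B (1.19 and 1.68). Other proteases of plasma were not, as Klkb1, encoding plasma kallikrein, stood at -0.0016 and -0.29 and Masp1, a complement protease like Masp2, at -0.36 and -1.19. Agt, the angiotensin precursor and itself a clade A serpin outside the naming rule, stood at 1.73 and 1.5.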

How the data were processed

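There were 4 libraries, 1 ChIP and 1 input per genotype. The authors deposited 1 table with a symbol, a position, a strand and a log2 enrichment per gene and genotype. Per the submitters' processing notes the build is mm9. Which aligner, read counting, filters and denominator were used is not given in the sources used here. The deposited log2 values could be written as log2 of a whole-number ratio (numbers up to 20000) with 1 added constant per genotype for 99.98% of WT and 99.95% of MD1 values (relative tolerance 1e-12). Such ratios are known in lowest terms only, so depth is unknown and no interval is given. Starts in the table were treated as counted from 0 and are printed plus 1.

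Members were found by symbol with Python 3.11.15 and pandas 2.3.3. A cluster is at least 3 members with gaps of at most 1 Mb. Level matching used the 500 nearest autosomal genes in mean level of the same length quartile and was tested on simulated data. Of several promoters per symbol the one with most CpGs was used, and promoters were aligned globally with biopython 1.88. Named were the fibroblast serpins, the 3 lowest and 3 highest differences per cluster, the 3 highest and lowest WT levels, all genes outside clusters and all members called relative to level-matched genes. Other members were named as examples. The members and lists were chosen with earlier results of these data known. A gene that the naming rule covers is not reported here.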

Additional observations from a re-analysis of the deposited data

How the results depend on the processing

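No paired analysis was possible because each genotype had 1 ChIP library, which also left no replicate to leave out. The number of serpins at least 2-fold lower in MD1 was 3 and became 1 both when centred on the autosomal median and when level-matched, 0 with a pseudocount of 1, 5 at a limit of 1.5-fold and 1 at 3-fold. Pseudocounts were added to the enrichment ratios themselves and not to reads. With 1 added, a gene can be lower only if its WT log2 value is above 0, and higher only if its MD1 value is. All 3 lower members and Serpinf1 failed this beforehand, so their loss does not show how firm the calls are. The number higher was 2 and became 0 with a pseudocount of 1, 4 at 1.5-fold and 0 at 3-fold. It was 3 when centred, with Serpinb9f added, and 3 when level-matched. Serpinh1 lay under the 25th percentile of mean level, so its call was lost where such genes were left out. Serpinh1 was the lower member that was called both after centring and after level matching, and Serpinf1 and Serpinb6d were called higher in both. Without the 5 fibroblast serpins, a setting added after the data were seen, 1 member was higher. With a pseudocount of 1 the shares of autosomal genes called fell to 0.156% lower and 0.176% higher. After centring they were 13.3% lower and 3.22% higher, and when level-matched 3.41% and 3.16%. Autosomal shares at 1.5-fold and 3-fold are not given here, so the member counts at those limits cannot be set against a background. Centring, a shift of 0.27, moved the median difference to 0.23 over all members, 0.27 on chromosome 12, 0.30 on chromosome 13 and 0.051 on chromosome 1. The chromosome 13 median was 0.18 when level-matched and -0.15 over genes with denominators of at least 20. The chromosome 1 median was -0.093 with a pseudocount of 1, and the mean in place of the median was -0.34. The cause of these changes was not tested beyond the construction of each setting. Of the 58 single members, 3 moved by at least the SD of their matched genes when level-matched, 5 with a pseudocount of 1 and 0 with a pseudocount of 0.01. Leaving out overlapping genes, a pseudocount of 0.01 and a cluster gap of 0.2 Mb left each count and median within 1.5 times or 0.1 of its main value. Denominators of at least 20 in both genotypes were found at 47 of the 58 members. As denominators are in lowest terms, this setting does not measure depth.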
